A study of Homo sapiens with 12 samples.

Results

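The Notch pathway was followed through 10 genes out of the 62702 entries of the count table that hold values. The 10 were listed by symbol and matched to the table's Ensembl identifiers: the receptors NOTCH1, NOTCH2 and NOTCH3, the ligands DLL1, JAG1 and JAG2, and the target genes HES1, HES4, HEY1 and NRARP. All 10 were found, and all 10 passed the filter on low counts, which left 17677 genes tested. The cells were MCF10AT, human breast epithelial cells of the MCF10A lineage that carry an HRAS oncogene. In every group the cells expressed the long human prolactin receptor (hPRLrL) together with the intermediate form (hPRLrI), whose own C-terminal stretch is called the I-tail, and in every group they had been starved of serum for 24 h. The 4 groups of 3 libraries each were intact I-tail with prolactin (PRL), intact I-tail untreated, deleted I-tail with PRL, and deleted I-tail untreated, PRL being given at 250 ng/ml for 2 h. The libraries were polyA-selected mRNA from cell cultures, which the labels call biological replicates. The labels do not say how the receptors were introduced or whether each line was a clone.

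Notch receptors are membrane proteins that are cut when a Delta or Jagged ligand on a neighbouring cell binds them. The released intracellular part enters the nucleus, joins the DNA-binding protein RBPJ and the MAML coactivators, and switches on target genes, of which the HES and HEY repressors are the best known. In the breast epithelium, Notch signalling takes part in the choice between basal and luminal fates. HES1 protein also represses its own gene, and its mRNA is short-lived, so that HES1 mRNA can change within hours.

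HES1 and HES4 carry, in the reference sequence just before their start, a pair of facing RBPJ motifs. This is the arrangement that the Notch complex is known to occupy as a dimer at HES1. The stretches are shown because the averaged PRL fold changes of HES1 and HES4 had opposite signs below, a difference that was not tested. The 120 bases before the RefSeq start are printed 5′ to 3′ on the gene's own strand, from the GRCh38.p14 promoter table. They lie at chr3:194136028-194136147 on the plus strand for HES1 and at chr1:1000098-1000217 on the minus strand for HES4. Capitals mark matches to the RBPJ letters GTGNGAA, searched on both strands, so that the second match in each reads TTCNCAC.
HES1: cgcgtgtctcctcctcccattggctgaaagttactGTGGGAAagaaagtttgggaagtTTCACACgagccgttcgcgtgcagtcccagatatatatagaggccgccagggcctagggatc
HES4: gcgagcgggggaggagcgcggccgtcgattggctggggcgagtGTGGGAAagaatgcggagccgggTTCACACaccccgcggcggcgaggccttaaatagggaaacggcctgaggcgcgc
The 2 matches face each other with 16 bases between them in both genes, beginning 85 and 62 bases before the start of HES1 and 77 and 54 bases before the start of HES4. Of 27305 promoters of the same length in the table, which runs from 250 bases before to 50 after each start, 13.9% held GTGNGAA on either strand. A facing pair no more than 30 bases apart was found in 26 promoters (0.0952%), and in 3 of them (HES1, HES4 and ITIH4) the gap was 16. The letters were not found in the windows of NOTCH1, NOTCH2, NOTCH3, JAG1, JAG2 or NRARP. The N-box letters CACNAG, the kind of site that HES proteins bind, matched at 4 places in the HES1 window, counting either strand, and 38.0% of all promoters held them. One of these matches begins 58 bases before the start and shares its first bases with the second RBPJ match. The STAT letters TTCNNNGAA, which read the same on both strands, were not found in the HES1 or HES4 window, and 7.88% of all promoters held them.

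The libraries held 36120808 to 57324865 counts, and 19073 to 25200 genes were detected in each. CISH, a feedback inhibitor that PRL induces through STAT5, served as the check that the hormone acted: its log2 fold change was 3.84 ± 0.18 (SE) over both receptors, with adjusted p = 1.45e-07 (edgeR). Replicates of a group differed far beyond counting noise, with a chi-square per degree of freedom of 57.2 to 239.6. The titles number the libraries in 3 runs of 4, each run holding 1 library of every group, and the libraries below are given in that order. The labels do not call these runs batches. Levels are given as CPM, read counts scaled to the library's total with TMM factors. Markers of basal mammary epithelium were present, with 10 of 10 at a mean of at least 1 CPM, and so were 4 of 8 luminal markers, which summed to 1117 to 3085 CPM, with PGR and ELF5 under 0.1 CPM in all libraries.

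HES1 and DLL1 were the 2 of the 10 genes with an unadjusted p under 0.05 for PRL, both lower in PRL-treated cells with either receptor, although neither passed the threshold after adjustment over all genes. NOTCH1 and HEY1 also had negative log2 fold changes with both receptors, at larger p. HES1, the repressor that is the best-known direct target of Notch, was at 10.97, 8.88 and 15.8 CPM with PRL in cells with the intact I-tail, against 17.9, 15.6 and 26.8 CPM in untreated cells. In cells with the deleted I-tail it was at 16.4, 15.6 and 14.1 CPM with PRL, against 23.6, 24.7 and 31.3 CPM untreated. The groups did not overlap with the deleted I-tail, where 4.97% of all tested genes stood apart in that direction. With the intact I-tail the highest PRL library lay just above the lowest untreated library.

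The averaged PRL effect on HES1, which weighs both receptors equally, was a log2 fold change of -0.77 ± 0.18 (SE; 95% interval -1.15 to -0.39), a level 1.71-fold lower with PRL. By edgeR's quasi-likelihood test its unadjusted p was 0.000677, rank 52 of the 17677 genes, and its Benjamini-Hochberg adjusted p was 0.229. Within each run of titles, HES1 was lower with PRL in 6 of 6 comparisons, by log2 ratios of -1.16 to -0.53. The share of all tested genes with such agreement was not counted, here or for the other genes below. The adjusted p was under 0.05 with no filter (0.00702), DESeq2 (0.0234), limma-voom (0.0181), a term for the runs of titles (0.00296) or 1 surrogate variable (0.0499). It was not under 0.05 with other scalings, a stricter filter or an offset for GC content and length. The same held without the first run of titles or with any library left out.

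DLL1 encodes a Delta ligand that activates Notch on the neighbouring cell. It had 1.71, 2.00 and 1.58 CPM with PRL against 2.48, 3.06 and 4.25 CPM untreated in cells with the intact I-tail. With the deleted I-tail it had 1.85, 2.60 and 2.17 CPM with PRL against 2.91, 3.49 and 5.29 CPM untreated. The groups did not overlap within either receptor, although across receptors the highest deleted PRL library lay above the lowest intact untreated library. Among all tested genes, 2.88% stood apart in the lower direction with the intact and 4.97% with the deleted I-tail.

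The averaged PRL effect on DLL1 was a log2 fold change of -0.86 ± 0.21 (SE; 95% interval -1.31 to -0.40), a level 1.81-fold lower with PRL, with an unadjusted p of 0.00131 and an adjusted p of 0.325 (edgeR). It was lower in 6 of 6 comparisons within runs of titles, by log2 ratios of -1.42 to -0.42. The gene rested on 65 to 245 counts a library. Limma-voom (0.021), the term for runs of titles (0.03), 1 surrogate variable (0.0236) and an offset for GC content and length (0.0492) took its adjusted p under 0.05. DESeq2, other scalings, no filter and a stricter filter did not. Nor did leaving out the first run of titles or any library. The span of DLL1 overlaps that of FAM120B, which is transcribed from the opposite strand. Whether counting used the strand is not given, but the exons of the annotated models share 0 bases, and FAM120B had an averaged log2 fold change of -0.09 ± 0.13 (adjusted p = 0.98, edgeR).

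None of the other 3 target genes had an unadjusted p under 0.05 for PRL. HES4, a close relative of HES1, was at 3.39, 7.95 and 8.70 CPM with PRL against 1.23, 5.43 and 7.52 CPM untreated with the intact I-tail. With the deleted I-tail it was at 2.56, 8.91 and 10.3 CPM with PRL against 2.84, 6.44 and 8.10 CPM untreated, so that HES4 levels overlapped between treatments. Within runs of titles HES4 was higher with PRL in 5 of 6 comparisons, by log2 ratios of -0.15 to 1.46. Its averaged log2 fold change was 0.41 ± 0.44 (SE), opposite in sign to that of HES1, which has the same pair of RBPJ letters at nearly the same place.

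HEY1, a repressor related to the HES proteins, stayed at or below 1.43 CPM in every library. It had 0.91, 0.21 and 0.85 CPM with PRL against 0.83, 1.32 and 0.75 CPM untreated with the intact I-tail, and 0.84, 1.43 and 0.54 CPM with PRL against 1.20, 0.95 and 1.32 CPM untreated with the deleted I-tail. NRARP, a target whose protein binds the Notch complex and dampens it, had 0.30, 1.08 and 0.76 CPM with PRL against 0.26, 0.58 and 0.38 CPM untreated with the intact I-tail. Its levels with the deleted I-tail were 0.60, 0.74 and 0.51 CPM with PRL against 0.18, 0.57 and 1.07 CPM untreated. Both genes overlapped between treatments, with averaged log2 fold changes of -0.42 ± 0.36 for HEY1 and 0.41 ± 0.44 for NRARP. Within runs NRARP was higher with PRL in 5 of 6 comparisons (log2 ratios -1.06 to 1.70) and HEY1 in 3 of 6 (-2.66 to 0.59). They rested on 7 to 58 and 8 to 47 counts a library, so changes of the size seen for HES1 were not resolved for them.

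**Figure D1:**
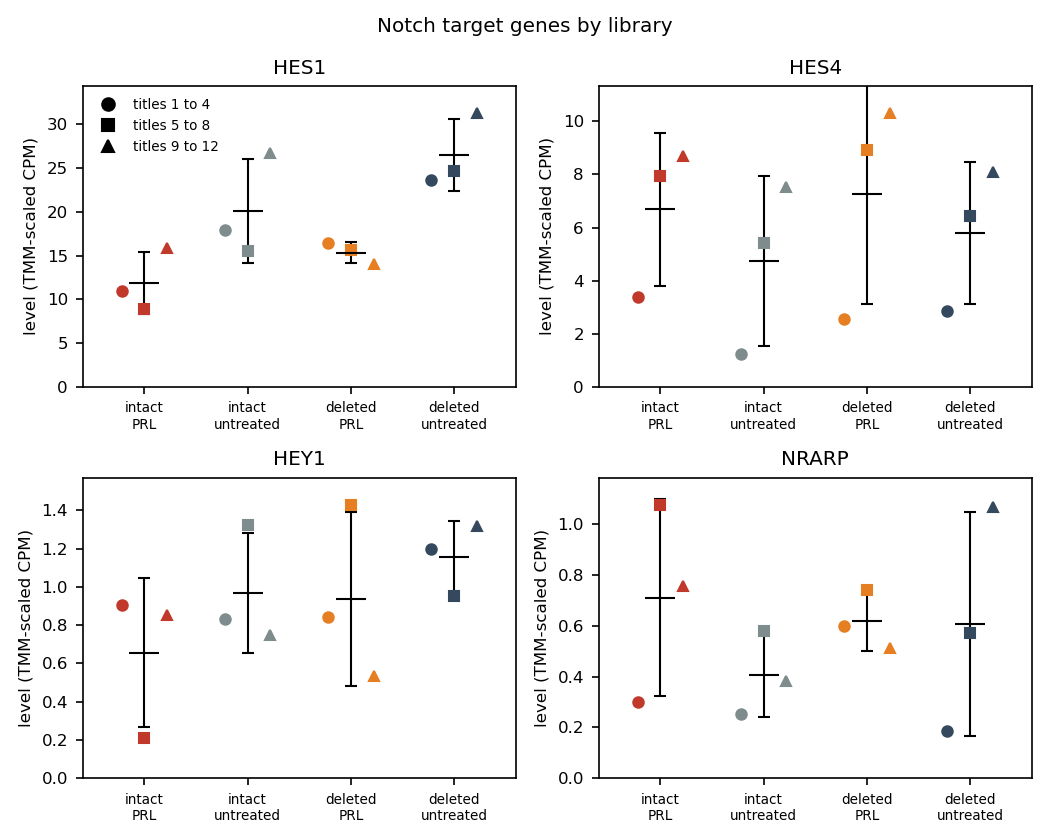
Levels of the 4 Notch target genes (vertical axis, TMM-scaled CPM) in the 12 libraries, by group on the horizontal axis. Points are libraries, shaped by the run of title numbers, and horizontal bars with whiskers are the mean ± SD (n = 3). HES1 lies at 8.88 to 16.4 CPM with PRL and at 15.6 to 31.3 CPM in untreated cells, ranges that overlap slightly. The treatments also overlap for HES4.

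Among the ligands, the Jagged genes did not share the pattern of DLL1. JAG1 had 78.7, 61.2 and 78.8 CPM with PRL against 55.2, 51.9 and 81.5 CPM untreated with the intact I-tail, and 76.7, 72.5 and 80.2 CPM with PRL against 63.6, 81.0 and 104.2 CPM untreated with the deleted I-tail. JAG2 had 33.9, 63.1 and 108.0 CPM with PRL against 32.4, 63.8 and 93.1 CPM untreated with the intact I-tail, and 38.5, 93.2 and 125.6 CPM with PRL against 39.1, 89.0 and 117.4 CPM untreated with the deleted I-tail. Averaged over receptors, the log2 fold changes were 0.05 ± 0.15 for JAG1 and 0.09 ± 0.37 for JAG2, and either one took the other sign under some alternatives. As a share of the summed level of the 3 ligands per kb of exon, DLL1 made up 3.08 ± 1.02% (SD, n = 3) with PRL and 5.88 ± 0.60% untreated with the intact I-tail. With the deleted I-tail its share was 3.22 ± 0.80% with PRL and 5.44 ± 0.99% untreated. JAG1 and JAG2 thus held most of the summed level of these 3 genes in every group. DNER, a noncanonical ligand outside the 3, was higher per length than their sum, at 30.2 CPM per kb over the 12 libraries.

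The 3 receptors, which receive the ligand signal, differed in how steady they were. NOTCH2 was the steadiest of the 10 genes: 329.7, 307.0 and 313.3 CPM with PRL against 288.8, 313.6 and 318.9 CPM untreated with the intact I-tail, and 319.4, 326.1 and 275.5 CPM with PRL against 334.2, 363.7 and 330.5 CPM untreated with the deleted I-tail. Its groups stood apart with the deleted I-tail, lower with PRL by a small margin (unadjusted p = 0.313, edgeR). In that direction 4.97% of all tested genes stood apart. Its averaged log2 fold change was -0.06 ± 0.11 (SE, with a 95% interval of -0.29 to 0.18). The human-specific copies of NOTCH2 can share its reads, and the 5 copies together had 0.331 to 1.09% as many counts as NOTCH2.

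NOTCH1 had 120.9, 140.3 and 234.7 CPM with PRL against 130.8, 181.9 and 248.1 CPM untreated with the intact I-tail, and 118.1, 178.8 and 156.0 CPM with PRL against 164.8, 208.0 and 221.1 CPM untreated with the deleted I-tail. Within runs of titles it was lower with PRL in 6 of 6 comparisons, by log2 ratios of -0.50 to -0.08, although its groups overlapped. Its averaged log2 fold change was -0.28 ± 0.20 (unadjusted p = 0.177, edgeR). NOTCH3 had 61.3, 88.2 and 201.1 CPM with PRL against 53.6, 125.1 and 147.0 CPM untreated with the intact I-tail, and 63.0, 155.1 and 131.7 CPM with PRL against 69.8, 132.2 and 144.0 CPM untreated with the deleted I-tail. Its groups overlapped fully, and its averaged log2 fold change of 0.06 ± 0.34 changed sign with the scaling (-0.05 with library size alone).

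**Figure D2:**
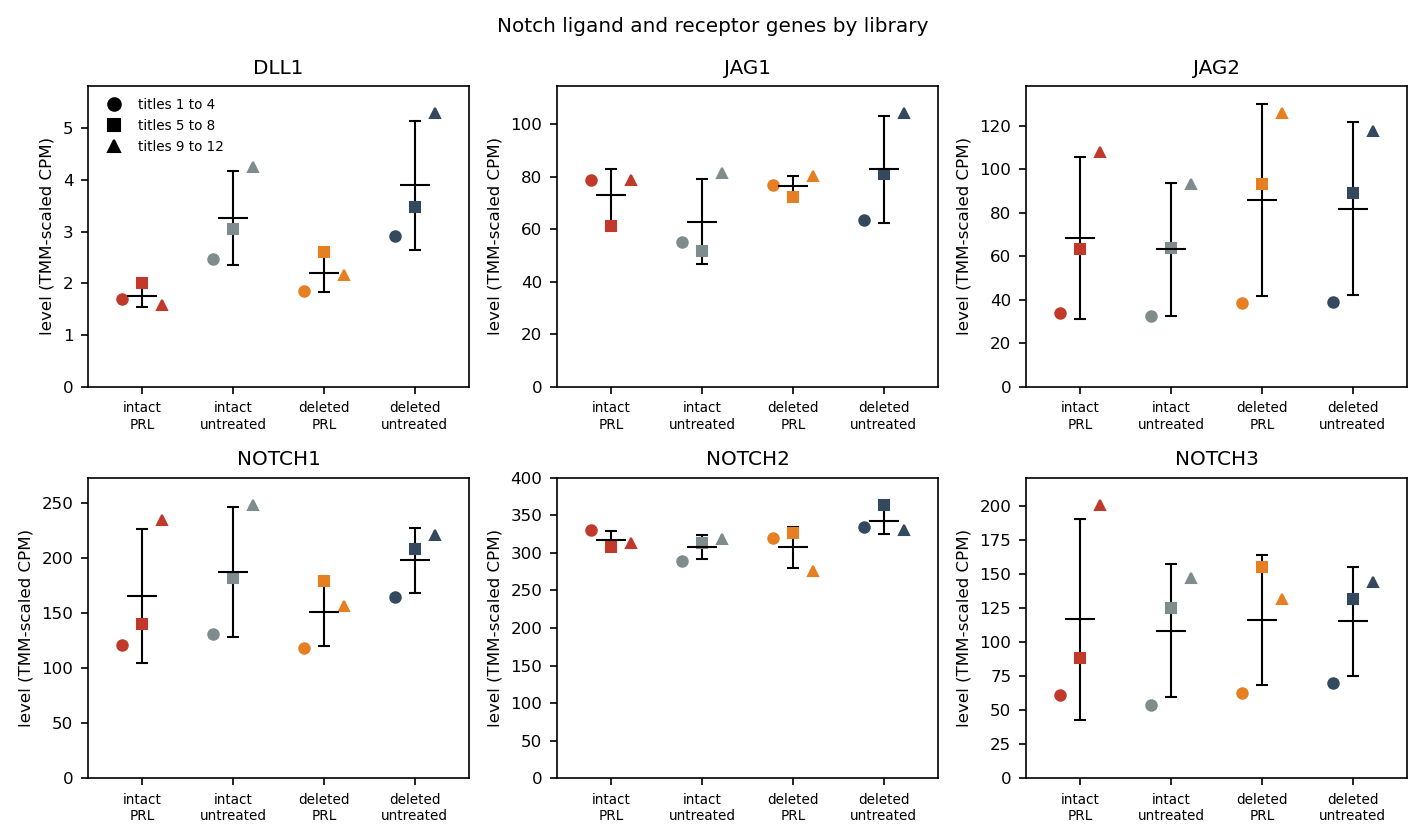
Levels of the 3 ligand and 3 receptor genes (vertical axis, TMM-scaled CPM) in the 12 libraries, by group on the horizontal axis. Points are libraries, shaped by the run of title numbers, and bars with whiskers are the mean ± SD (n = 3). DLL1 does not overlap between PRL and untreated cells of the same receptor, and JAG2 and NOTCH3 are lowest in the libraries titled 1 to 4.

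By edgeR's quasi-likelihood test at an adjusted p of 0.05, 0 of the 10 genes were called in the averaged PRL effect, where 0.119% of all tested genes were called. At an unadjusted p under 0.05, 2 of the 10 were lower and 0 higher, against 3.81% of all tested genes in either direction and 1.64% in the lower. DESeq2 called 1 of the 10 (HES1) and 0.233% of all 33852 genes with any count, a wider base than the 17677 tested genes. Limma-voom and the term for runs of titles called 2 (HES1 and DLL1), and 0.668% and 1.12% of the 17677 genes. The median log2 fold change of the 10 was -0.0045, with 5 above 0 and 5 below, and that of all tested genes was -0.0227. The PRL effects taken separately were -0.76 ± 0.25 with the intact and -0.79 ± 0.25 with the deleted I-tail for HES1, and -0.89 ± 0.30 and -0.82 ± 0.30 for DLL1. With each receptor 0 of 10 were called and the same 2 genes had an unadjusted p under 0.05, while 0.017% of all tested genes were called with either receptor. An unadjusted p under 0.05 was reached by 2.55% of all tested genes with the intact and 1.79% with the deleted I-tail. DESeq2 and limma-voom called 0 of the 10 in these 2 comparisons.

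**Figure D3:**
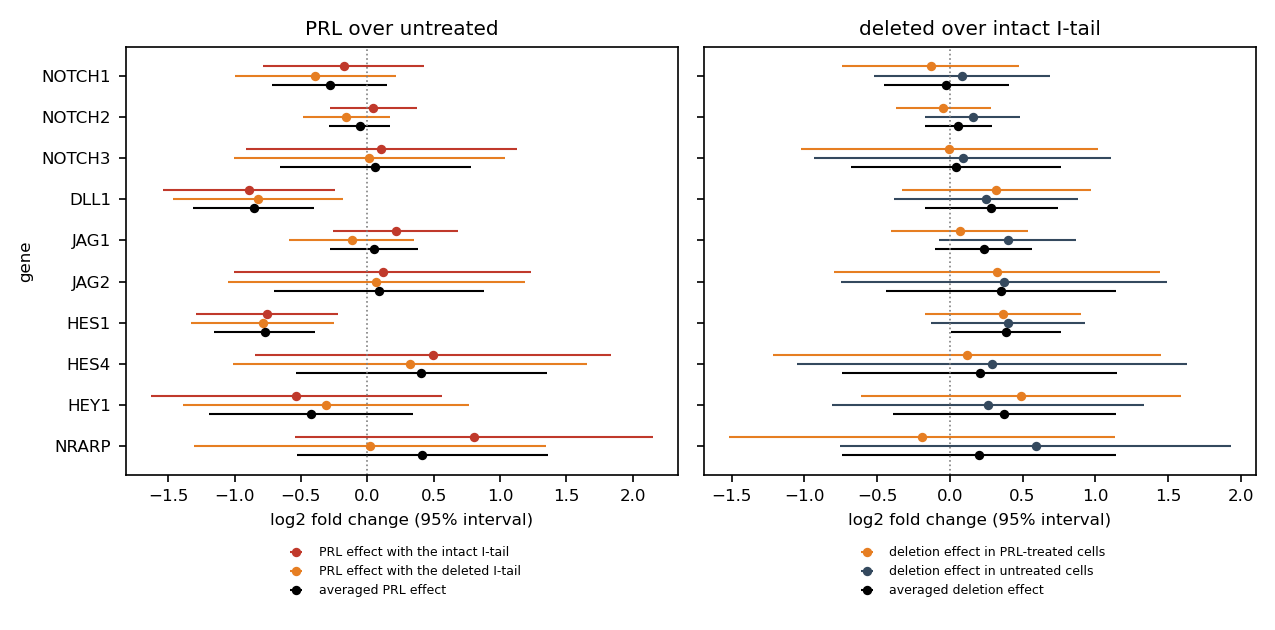
Log2 fold changes of the 10 genes with 95% intervals (horizontal axis), for PRL over untreated cells on the left and the deleted over the intact I-tail on the right. Black points are averages over the other factor and coloured points the separate comparisons. On the left the intervals of HES1 and DLL1 lie below 0, with averages of -0.77 and -0.86, and those of the other 8 genes cross 0.

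The design asks whether the response to PRL depends on the I-tail, and for these genes no dependence was detected. The PRL effect with the deleted minus that with the intact I-tail was -0.03 ± 0.35 for HES1 (SE; 95% interval -0.79 to 0.72) and 0.07 ± 0.42 for DLL1 (-0.84 to 0.98) on the log2 scale. These intervals reach about as far from 0 as the PRL effects themselves, so the data do not show that the receptors act alike. Across the 10 genes the difference ran from -0.78 to 0.23. EdgeR called 0 of 10 and 0% of all tested genes. At an unadjusted p under 0.05 it had 0 of 10 and 0.718% of all tested genes, and DESeq2 and limma-voom called 0 of the 10.

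The deletion itself was compared within each treatment. In untreated cells, the log2 fold changes of all 10 genes lay above 0, with a median of 0.28 and a range from 0.08 (NOTCH1) to 0.59 (NRARP), while the median of all tested genes was 0.03 and 45.04% of them lay below 0. The 10 basal epithelial markers also all lay above 0 in this comparison (median 0.44), as did the 5 fibroblast markers tested (median 0.40), and their part in the shift was not tested. The values were 0.40 ± 0.25 for HES1, 0.25 ± 0.29 for DLL1 and 0.40 ± 0.22 for JAG1. HES1 was at 23.6, 24.7 and 31.3 CPM with the deleted I-tail against 17.9, 15.6 and 26.8 CPM with the intact I-tail, which overlap. NOTCH2 alone among the 10 did not overlap, at 334.2, 363.7 and 330.5 CPM with the deleted against 288.8, 313.6 and 318.9 CPM with the intact I-tail, and 3.58% of all tested genes stood apart in that direction. EdgeR called 0 of the 10 and 0.00566% of all tested genes, and 0 of the 10 had an unadjusted p under 0.05, as 0.837% of all tested genes did. The count of 10 above 0 was 5 without deleted untreated library 3, 7 without intact untreated library 1 and 7 with limma-voom.

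With PRL, 6 of 10 genes lay above 0, and HES1 was at 16.4, 15.6 and 14.1 CPM with the deleted against 10.97, 8.88 and 15.8 CPM with the intact I-tail, a log2 fold change of 0.37 ± 0.25. DLL1 had a value of 0.32 ± 0.30 there. Averaged over treatments the deletion effect was 0.38 ± 0.18 for HES1 (unadjusted p = 0.047, adjusted p = 0.991, edgeR) and 0.29 ± 0.21 for DLL1. In the averaged comparison 0 of 10 genes were called and 1, HES1, had an unadjusted p under 0.05, as did 2.28% of all tested genes. In PRL-treated cells 0 were called and 0 had an unadjusted p under 0.05, which 1.62% of all tested genes had. Each comparison called 0.00566% of all tested genes, and DESeq2 and limma-voom called 0 of the 10 in all 3 deletion comparisons. The comparisons within a treatment share libraries with the PRL comparisons.

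Levels of different genes were set side by side per kb of merged exon length, as means over the 12 libraries. NOTCH2 came first at 18.9 ± 1.3 CPM per kb (SD, n = 12), before NOTCH1 at 16.9 ± 4.3, NOTCH3 at 12.2 ± 4.9 and JAG2 at 11.7 ± 5.3. HES1 followed at 8.96 ± 3.25, then JAG1 at 7.94 ± 1.53 and HES4 at 5.47 ± 2.65. DLL1 at 0.86 ± 0.34, NRARP at 0.33 ± 0.16 and HEY1 at 0.29 ± 0.11 CPM per kb came last. Neighbours in this order lay within their spread, apart from the steps between HES4 and DLL1 and between DLL1 and NRARP, where the means ± SD did not overlap although single libraries did. Divided by the longest transcript instead, NOTCH2 was at 28.0, JAG1 at 12.4 and HEY1 at 0.40 CPM per kb. The order then changed, with JAG1 above HES1 (11.7) and HEY1 above NRARP (0.33).

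**Figure D4:**
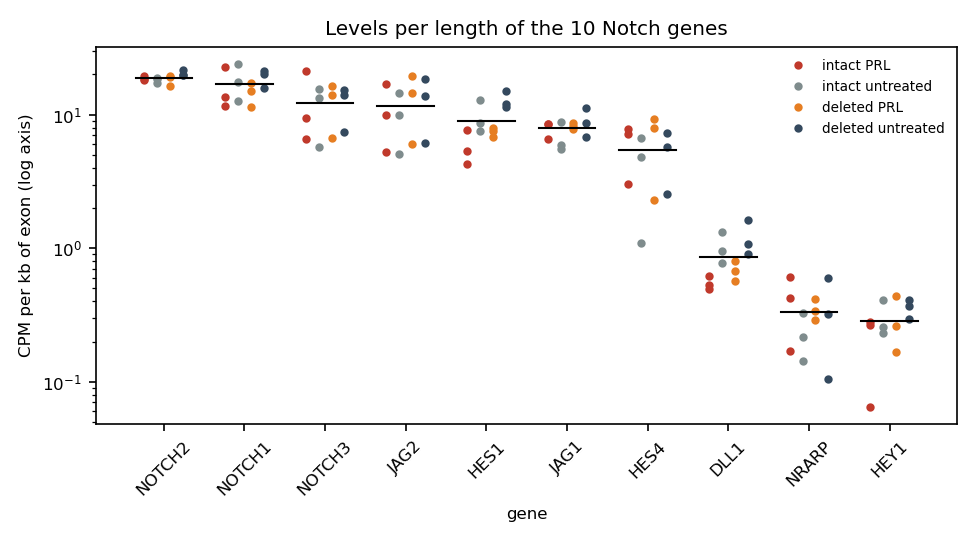
Levels of the 10 genes per kb of merged exon (vertical log axis, CPM per kb) in every library, coloured by group, with a black line at the mean of the 12 libraries. The 3 receptors, JAG1, JAG2, HES1 and HES4 have means from 5.47 to 18.9 CPM per kb, and DLL1, NRARP and HEY1 have means from 0.29 to 0.86 CPM per kb.

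For 3 of the genes, all 4 libraries of the first run of title numbers lay below the other 8. NOTCH3 was at 53.6 to 69.8 CPM in the 4 libraries of the first run against 88.2 to 201.1 CPM in the other 8, JAG2 at 32.4 to 39.1 against 63.1 to 125.6 CPM, and HES4 at 1.23 to 3.39 against 5.43 to 10.3 CPM. All 4 libraries of the first run lay below the other 8 for 13.6% of all tested genes and for 37.3% of those in the top 10 percent of transcript GC content. HES4, JAG2 and NOTCH3 stand at the 99.96th, 94.6th and 92.7th percentiles of GC among tested genes. NRARP and NOTCH1, at the 98.6th and 92.45th, overlapped between the first run and the others. HES1 and DLL1, at the 51.8th and 79.5th, overlapped as well. Of the 10 basal epithelial markers, 7 had the same pattern, and the list summed to 2711 to 3428 CPM in the first run against 8227 to 14470 CPM in the others. Luminal markers summed to 1117 to 1292 against 1368 to 3085 CPM, and endothelial markers were higher in the first run, at 2.26 to 3.30 against 1.22 to 2.00 CPM. The part of these markers in the NOTCH3, JAG2 and HES4 levels was not tested. Every run holds all 4 groups.

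Over the 12 libraries the log2 levels of NOTCH3 and JAG2 had a Pearson r of 0.94, JAG2 and HES4 0.91, and NOTCH1 and NOTCH3 0.86. In deviations from the group means the same pairs had r = 0.947, 0.941 and 0.965. The part of the runs in these values was not tested. HES1 and DLL1 had r = 0.81 over the 12 libraries and 0.35 in deviations from the group means. HES1 and HES4 had r = -0.015. Among 9226 genes with a mean of at least 5 CPM, those most like HES1 were PLK2 (r = 0.93), a stress-responsive Polo-like kinase, CSNK2A2 (0.91), a casein kinase 2 subunit, FOXO4 (0.89), a forkhead factor, H2AC6 (0.88), a histone H2A, and CMBL (0.87), a hydrolase. Their correlations in deviations from group means were 0.62 to 0.86. PLK2 had an averaged PRL log2 fold change of -0.71 ± 0.15 (adjusted p = 0.192, edgeR), next to that of HES1. Those most like DLL1 were ZFP36L1 (0.92), an RNA-binding protein that promotes mRNA decay, ZBTB12 (0.85), TRAFD1 (0.85), TMEM41A (0.83) and VEGFC (0.81), a lymphatic growth factor. In deviations from group means, the correlations with DLL1 ran from 0.38 for ZBTB12 to 0.85 for ZFP36L1. These are descriptions of 12 libraries that share groups and runs.

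Beyond the 10 members, 81 further genes of the pathway were listed by role, of which 73 were tested. In the averaged PRL effect, 1 rose, 0 fell and 72 did not pass, against 0.119% of all tested genes called, and the list's median log2 fold change was -0.012. At an unadjusted p under 0.05, 6 of the 73 were higher and 1 lower, where 3.81% of all tested genes passed in either direction and 1.64% in the lower. With the term for runs of titles 6 of the 73 were called, as were 1.12% of all tested genes. The gene that rose was TLE3, a Groucho-family corepressor that HES proteins recruit. It had 217.2, 244.9 and 184.7 CPM with PRL against 112.1, 128.7 and 146.8 CPM untreated with the intact I-tail, and 204.0, 226.7 and 220.1 CPM with PRL against 106.4, 132.2 and 137.2 CPM untreated with the deleted I-tail. All 6 PRL-treated libraries lay above all 6 untreated ones, as for 0.441% of all tested genes, and the log2 fold change was 0.77 ± 0.13 (adjusted p = 0.0345, edgeR). The call ended with RLE scaling (adjusted p = 0.0571) and without any of 9 single libraries: each untreated library of either receptor and each of the deleted PRL libraries (0.0566 to 0.172).

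LFNG and SPEN were among the next genes by unadjusted p and did not pass. LFNG, the Fringe enzyme that adds sugars to Notch and so changes which ligands it answers to, was at 104.1, 107.8 and 91.2 CPM with PRL against 79.1, 59.3 and 62.1 CPM untreated with the intact I-tail, and at 107.2, 73.7 and 91.9 CPM with PRL against 73.1, 50.5 and 59.9 CPM untreated with the deleted I-tail. With the deleted I-tail the lowest PRL library, at 73.7 CPM, lay just above the highest untreated library, at 73.1 CPM. The averaged log2 fold change of LFNG was 0.58 ± 0.14 (adjusted p = 0.273, edgeR). SPEN, a corepressor that binds RBPJ, had 0.44 ± 0.12 (adjusted p = 0.474, edgeR). DESeq2 called LFNG as well as TLE3, and limma-voom also called SPEN and SOX9.

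By role, 1 of 12 corepressors rose. None of 9 proteases that cut the receptor, 5 glycosyltransferases, 15 trafficking and turnover genes, 9 genes of the RBPJ and MAML complex, 4 other ligands, 1 other receptor (NOTCH4), 6 other HES and HEY genes and 12 other reported targets passed. For the transcription complex, 8 of 9 log2 fold changes lay below 0, with a median of -0.079 and a range from -0.20 to 0.19, where 53.86% of all tested genes lay below 0. With the intact I-tail alone 5 of 9 lay below 0. The 8 genes that were not tested, because of low counts, were DLK1, MFNG, DTX1, HES3, HES5, HEYL, HELT and PTCRA. In the other 6 comparisons edgeR called 0 of the 73. At an unadjusted p under 0.05, 5 were higher with PRL for the intact I-tail, 3 for the deleted I-tail, and 0 in any of the deletion or interaction comparisons. Of all tested genes, 2.55% passed in either direction with the intact and 1.79% with the deleted I-tail. The share was 0.837% to 2.28% in the deletion comparisons and 0.718% in the interaction.

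Levels of markers of other cells were measured beside these values. The 7 leukocyte markers summed to 21.1 to 22.1 CPM with PRL against 13.2 to 21.0 CPM untreated with the intact I-tail, and to 18.2 to 30.9 CPM against 11.2 to 15.1 CPM with the deleted I-tail. These sums were mostly CD14, the 1 of 7 markers with a mean of at least 1 CPM, at 18.4 CPM over all libraries. The lineage-defining PTPRC and CD3E were under 0.1 CPM in all libraries. The 6 endothelial markers summed to 1.22 to 3.30 CPM with PRL and 1.48 to 2.48 CPM untreated over both receptors, with CDH5 and CLDN5 under 0.1 CPM. Of the fibroblast markers, 4 of 7 had a mean of at least 1 CPM, and they summed to 425.2 to 617.7 CPM with PRL and 423.5 to 577.0 CPM untreated. The part of these markers in the HES1 and DLL1 values was not tested. In bulk RNA, fewer cells expressing a gene and less mRNA in each cell cannot be told apart.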

How the data were processed

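Bulk polyA mRNA of 12 libraries was measured. The deposited table holds raw read counts per gene. Per the submitters' processing notes, the tools named are FastQC, STAR 2.7.9a, featureCounts and Subread, with GRCh38; no source used here gives their settings, the annotation release or the use of strand. Of 62703 entries, 1 has no values, and 62624 of the others matched a symbol. Groups came from the genotype and treatment labels. The counts were fitted with edgeR 4.0.16 (R 4.3.3): TMM scaling, filterByExpr, 4 group means, robust quasi-likelihood fit with 8 residual degrees of freedom, 7 comparisons, Benjamini-Hochberg adjustment over 17677 genes and a threshold of 0.05. SEs were taken as the size of the log2 fold change over the root of its F. Total counts ran from 36120808 to 57324865. Lengths, GC content and gene positions come from GENCODE 29. Promoters come from RefSeq, GRCh38.p14, whose table matched 8 of the 10 genes. The code was tested on simulated data.

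The 10 genes and all lists were chosen with earlier results of these data known. Genes named were the 10 members, genes of the pathway lists that were called (in the averaged PRL effect at least the 4 with the smallest p), the NOTCH2 copies, genes overlapping a member, and for HES1 and DLL1 the 5 genes with the highest Pearson r of log2 CPM (prior count 2). PRL and untreated libraries of the same receptor and title run deviated together (r = 0.134 to 0.603, 6 pairs), so values with a term for runs stand beside the results they change. Of the genes this rule names, 1 in the pathway lists is not reported here. SOX9 and ITIH4 are exceptions, chosen with their values in view. The alternatives comprised scaling by RLE, by upper quartile or by library size alone, no filter, a stricter filter (1 CPM), DESeq2 1.42.0, limma-voom (limma 3.58.1), a term for title runs, 1 surrogate variable (sva 3.50.0), a length by longest transcript and leaving out each library. A GC and length offset and leaving out the first title run were added after the data were seen.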

Additional observations from a re-analysis of the deposited data

How the results depend on the processing

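Of 1603 alternative values over 70 log2 fold changes of the 10 genes (7 comparisons), 147 had the other sign, spread over 37 of the fold changes, and 0 of these were among the PRL effects on HES1 and DLL1. The count of members called in the averaged PRL effect was 0 as reported. It was 1 with no filter or DESeq2 (HES1) and 1 with the GC and length offset (DLL1). With limma-voom, the term for title runs or 1 surrogate variable it was 2. It was 0 in all other settings, and in the other 6 comparisons it was 0 throughout. Leaving out each library gave -0.89 to -0.65 for HES1 (adjusted p 0.0987 to 0.58) and -0.94 to -0.71 for DLL1 (0.294 to 0.803). The pathway list, with 1 gene called, had 0 with RLE scaling, 2 with library size alone, the GC and length offset or without the first title run, 3 with no filter or DESeq2, 5 with limma-voom or 1 surrogate variable, 6 with the run term, and 0 to 1 with each library left out. The cause of these differences was not tested. The labels give groups no shared replicate numbers and call the title runs nothing, so the run term, which acts as a replicate block, was kept as an alternative; across receptors, same-run libraries deviated together with r = 0.097 to 0.56. Averaged PRL effects that changed sign were NOTCH3 (-0.045 with library size alone, -0.14 with 1 surrogate variable, -0.10 with the offset, -0.25 to 0.22 with a library left out), JAG1 (-0.044 with library size alone, -0.088 with limma-voom, -0.10 without the first run, -0.030 to 0.16 with a library left out) and JAG2 (-0.031, -0.20 and -0.084 with library size alone, 1 surrogate variable and the offset, -0.14 to 0.28 with a library left out). In untreated cells the deletion effect on NOTCH1 was -0.15 with limma-voom and -0.019 without the first run, and with a library left out it was -0.12 to 0.29, that on DLL1 -0.034 to 0.44 and that on NRARP -0.088 to 1.02. The interaction was 0.013 for HES1 with library size alone, and with a library left out -0.27 to 0.22 for HES1 and -0.15 to 0.36 for DLL1. Library size alone put the median of all genes at -0.12 for the averaged PRL effect. Levels per length moved to 28.0 (NOTCH2), 12.4 (JAG1) and 0.40 (HEY1) CPM per kb with the longest transcript. NRARP was not tested under the stricter filter. Low counts limit HEY1 (7 to 58 a library) and NRARP (8 to 47).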
